A study of Mus musculus with 6 samples.

Results

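The Hes and Hey genes encode basic helix-loop-helix transcriptional repressors, and their expression was examined in lacrimal gland buds with and without the Pea3 transcription factors. The members were chosen by gene symbol alone, as Hes1, Hes2, Hes3, Hes5, Hes6, Hes7, Hey1, Hey2 and Heyl, and all 9 were among the 23420 symbols of the count tables. RNA was sequenced from lacrimal gland epithelium that had been laser-captured from mouse embryos at E14.5, with 3 control and 3 Pea3 TKO samples. Control embryos carried the Le-Cre transgene alone. Pea3 TKO embryos were Le-Cre, Pea3-/-, Ermfl/fl, Er81fl/fl, so that Pea3 (Etv4) was null throughout the embryo while Erm (Etv5) and Er81 (Etv1) were removed only where Le-Cre was active, which per the study's text is the conjunctiva and the gland that buds from it. By these genotype labels both groups carried Le-Cre, although the sample titles call the controls WT, and both had a mixed strain background. The labels do not say whether a sample held 1 embryo or several.

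Hes and Hey proteins bind DNA as dimers and shut down genes such as those for proneural factors, and Hes proteins recruit Groucho family co-repressors. Several of them are classical outputs of Notch: a ligand on one cell releases the intracellular domain of a Notch receptor on its neighbour, and this fragment joins the DNA-binding protein Rbpj to switch on Hes1, Hes5, Hey1, Hey2 and Heyl. Hes6 stands apart because it is not a typical Notch output and can oppose Hes1, and Hes7 is best known from the segmentation clock of the embryo. Notch signalling was one of the pathways the study examined in these libraries, with Hes1 as its downstream gene.

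Promoter sequence was considered first, since a site for Rbpj is the feature that ties a Hes or Hey gene to Notch. The RefSeq promoter table (GRCm38.p6) held windows for 4 of the 9 members, Hes5, Hes6 (from 2 start sites), Hes7 and Hey2, each running from 250 bases before the RefSeq start to 50 after it. The Rbpj core GTGGGAA was searched on both strands. It occurred in 6.38% of all 32851 windows and at least 2 times in 0.256% of them. The closing letters of this core, GGAA, are also the heart of the sites that ETS proteins such as the Pea3 factors bind. The windows of the 3 members with the core are printed to show where it lies, with that of the upstream Hes6 start, which lacks it, for contrast. Each runs 5′ to 3′ on the strand of the gene and stops before the first annotated exon, and capitals mark the Rbpj core, which reads ttcccac where it lies on the opposite strand.
Hes5, chr4:154960673-154960922, plus strand: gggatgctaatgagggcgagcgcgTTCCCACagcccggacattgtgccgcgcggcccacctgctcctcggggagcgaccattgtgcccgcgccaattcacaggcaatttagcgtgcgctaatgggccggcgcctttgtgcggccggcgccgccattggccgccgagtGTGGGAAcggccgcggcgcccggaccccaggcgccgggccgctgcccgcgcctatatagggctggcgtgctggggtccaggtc
Hey2, chr10:30842802-30843033, minus strand: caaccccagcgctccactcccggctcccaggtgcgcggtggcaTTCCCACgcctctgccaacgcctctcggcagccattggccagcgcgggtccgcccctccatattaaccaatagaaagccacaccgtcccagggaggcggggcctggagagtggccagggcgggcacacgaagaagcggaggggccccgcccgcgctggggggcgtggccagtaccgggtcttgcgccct
Hes7, chr11:69120203-69120403, plus strand: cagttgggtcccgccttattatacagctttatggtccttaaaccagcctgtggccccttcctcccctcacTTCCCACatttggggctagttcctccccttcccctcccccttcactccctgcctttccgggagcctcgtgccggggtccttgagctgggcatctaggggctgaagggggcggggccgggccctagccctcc
Hes6, chr1:91414039-91414288, minus strand: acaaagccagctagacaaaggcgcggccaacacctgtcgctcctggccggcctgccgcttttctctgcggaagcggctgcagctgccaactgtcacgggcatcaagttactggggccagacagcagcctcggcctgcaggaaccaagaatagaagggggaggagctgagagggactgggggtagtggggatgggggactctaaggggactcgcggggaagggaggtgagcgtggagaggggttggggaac

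The Hes5 window held the core 2 times, at base -226 on the opposite strand and at base -83 on the strand of the gene, counted from the RefSeq start to the first base of the match, 143 bases apart. The Hey2 window also held it 2 times, at bases -207 and -4, of which the second lies beyond the stretch shown. Hes7 had 1 core at base -180, and neither Hes6 window had any. The N-box CACNAG, to which Hes proteins can bind, was found in 42.5% of all windows, and among these members it occurred at base -116 in Hes7 and at bases -237 and 15 in the downstream Hes6 window. The ETS letters CCGGAA, present in 14.9% of all windows, were found at base -126 in Hes7 and at base -3 in the downstream Hes6 window, and were not in the windows of Hes5 or Hey2. These are matches of letters, and binding was not measured here.

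Before the members were compared, the samples were checked. Total counts ran from 14194775 to 17860140 per sample, and 3 counts corresponded to between 0.168 and 0.211 CPM by total count. All other CPM values are library-scaled counts with TMM normalisation. The deleted genes were lower in every Pea3 TKO sample. Etv4 had 129 to 184 CPM in controls and 10.9 to 28.4 in Pea3 TKO, Etv5 961 to 1202 and 88.2 to 177, and Etv1 28.7 to 33.9 and 9.21 to 9.98. The epithelial list was abundant in all 6 samples, with summed levels of 3186 to 4029 CPM in controls and 5722 to 6792 CPM in Pea3 TKO. Of its 8 genes, 7 rose in the mutants, where 13.6% of all tested genes rose, and Epcam did not pass the test (log2 fold change -0.17). The samples also differed in Y-linked and mesenchymal RNA. Summed Y-linked genes reached 136 to 175 CPM in controls and 139 CPM in Pea3 TKO replicate 3, but only 0.444 and 0.210 CPM in Pea3 TKO replicates 1 and 2, where Xist was at 106 and 32.5 CPM. The 9 mesenchyme genes summed to 402 and 562 CPM in Pea3 TKO replicates 1 and 2, against 11.9 CPM in replicate 3 and 15.3 to 113 CPM in controls.

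Hes1, an abundant member in both groups, rose in Pea3 TKO. Its gene lies on chromosome 16 (30064384 to 30067796, GRCm38). Hes1 stood at 111, 89.0 and 67.0 CPM in control replicates 1, 2 and 3, and at 224, 180 and 189 CPM in Pea3 TKO replicates 1, 2 and 3. Every mutant sample exceeded every control. The means were 88.9 ± 21.8 and 197 ± 23.3 CPM (SD, n = 3 each). The log2 fold change came to 1.15 (standard error 0.18, 95% interval 0.75 to 1.55) with an adjusted p of 0.0020 in the edgeR quasi-likelihood test. This corresponded to 2.22 times the control level, and Hes1 ranked 1459 among the 13087 tested genes by fitted increase. In Pea3 TKO replicate 3, the mutant sample with Y-linked transcripts and little mesenchymal RNA, Hes1 was at 189 CPM. With Y-linked expression as a covariate the log2 fold change of Hes1 was 1.10 (adjusted p = 0.040 by quasi-likelihood). That fit rests mainly on the same replicate 3, the only mutant sample with Y-linked RNA. Markers of stratified ocular surface or epidermis moved with Hes1, as 7 of 8 rose, where 13.6% of all tested genes rose. Their sum was 541 to 1575 CPM in controls and 5124 to 7295 CPM in the mutants. Krt13 and Dsg3, at most 0.226 and 0.564 CPM in controls, passed the low-count filter only through their mutant libraries. Their rise was thus already implied. The part of these surface markers, of the epithelial markers, of sex and of mesenchymal RNA in the Hes1 value was not tested. In RNA pooled from many captured cells, more cells that express a gene cannot be told apart from more transcript per cell.

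Of the 9 members, Hes1 and Heyl rose, none fell, Hes6 and Hey1 did not pass the test, and the other 5 had too few counts to be tested. Across all tested genes, 25.0% passed the same threshold, 13.6% higher and 11.3% lower in Pea3 TKO. For Hes1, Hey1 and Heyl the lowest mutant sample lay above the highest control, which held for 22.5% of all tested genes. The 4 members with a test were those that passed the filter on low counts. Heyl did so through its mutant libraries, because 2 of its control libraries stood at 0.499 and 0 CPM, so that a difference in Heyl was already implied by its passing.

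**Figure D1:**
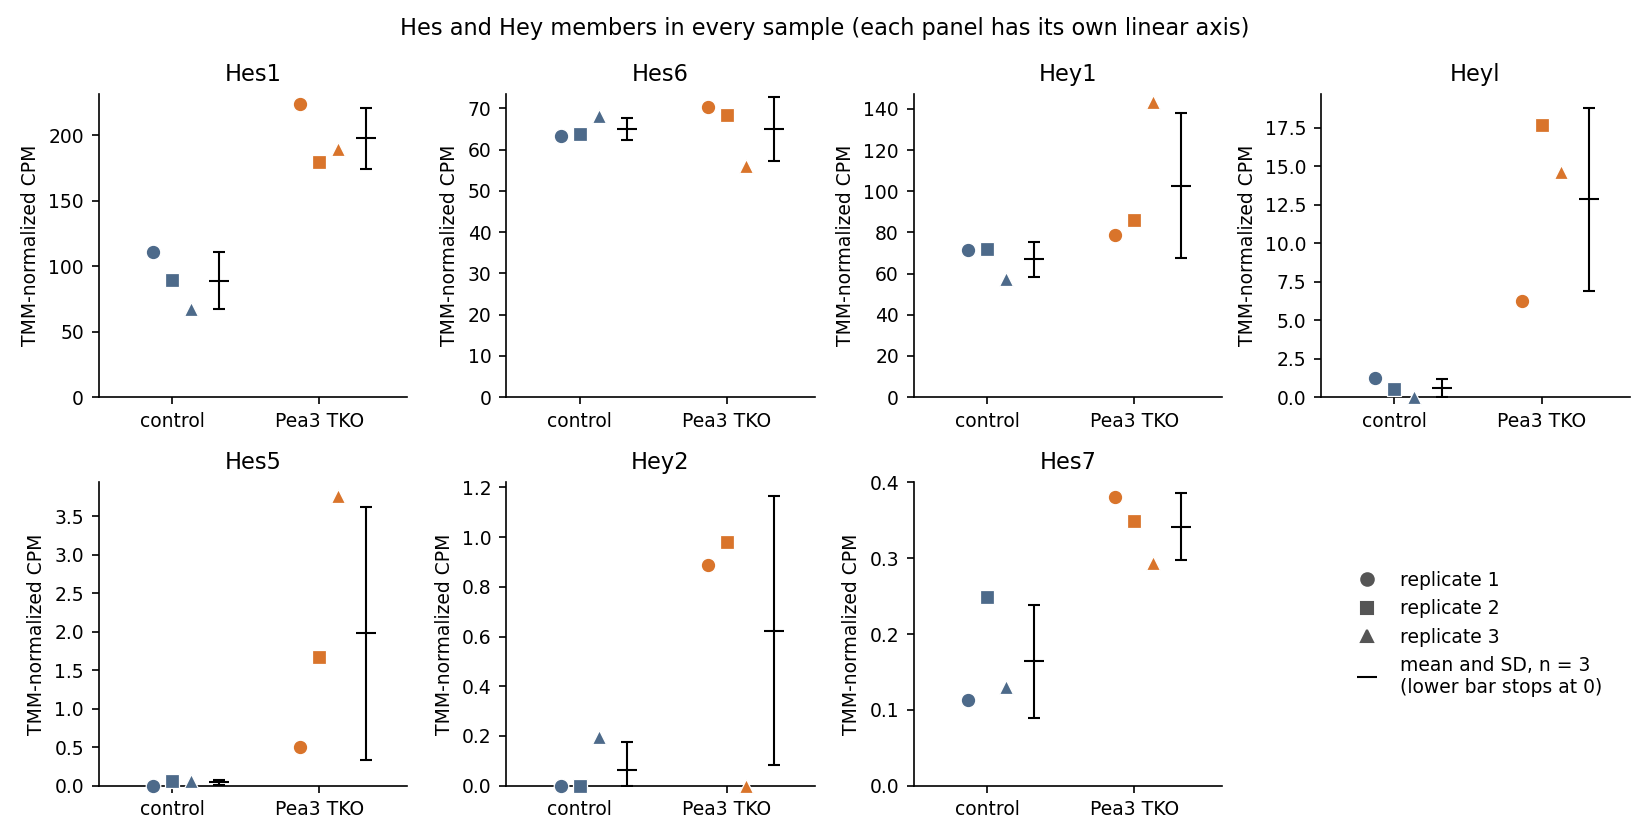
Levels of the 7 members with any count, in TMM-normalised CPM on the vertical axis, for the 3 control (blue) and 3 Pea3 TKO (orange) samples, with symbols for replicate numbers and the mean and SD beside them. For Hes1, Heyl, Hey1, Hes5 and Hes7 every mutant sample lies above every control, with Hes7 apart by only a few reads. Hey2 overlaps between the groups, and Hes6 is level at about 65.0 CPM in both. The spread of Hey1 in Pea3 TKO comes from replicate 3 at 143 CPM.

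The Hey genes, whose proteins take part in heart, vessel and cartilage development, behaved unequally. Hey1 (chromosome 3, 8663359 to 8667256) was expressed at a substantial level in both groups. It measured 71.5, 72.1 and 57.3 CPM in control replicates 1, 2 and 3, and 78.9, 86.1 and 143 CPM in Pea3 TKO replicates 1, 2 and 3. Mutant replicates 1 and 2 were only just above the highest control, and replicate 3 was far above both of them. The log2 fold change was 0.62 (standard error 0.22, 95% interval 0.13 to 1.11), and the adjusted p of 0.067 in the quasi-likelihood test was above the threshold. This estimate depended on single libraries. Without Pea3 TKO replicate 3 it was 0.30 (adjusted p = 0.21 by quasi-likelihood), and without Pea3 TKO replicate 1 it was 0.78 (adjusted p = 0.045 by quasi-likelihood). With Y-linked expression as a covariate the log2 fold change of Hey1 was 1.11 (adjusted p = 0.013 by quasi-likelihood), when 3.80% of all genes were called higher. In that fit the group difference rests mainly on Pea3 TKO replicate 3, the only mutant sample with Y-linked RNA, so it is no separate support. The DESeq2 Wald test, which called 14.6% of its genes higher, gave 0.62 with an adjusted p of 0.028. Pea3 TKO replicate 3 was also the sample with the most red blood cell RNA, at 221 summed CPM for 5 genes against 31.3 to 101 CPM in the other 5 samples, and the part of this in the Hey1 value was not tested.

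Heyl (chromosome 4, 123233556 to 123249875) was nearly silent in controls and rose in Pea3 TKO. The control libraries held 22, 8 and 0 counts in replicates 1, 2 and 3, or 1.24, 0.499 and 0 CPM. The mutant libraries held 98, 253 and 249 counts, or 6.22, 17.7 and 14.6 CPM. The lowest mutant sample was above the highest control, although the mutant samples themselves were widely spread. The log2 fold change was 4.42 (standard error 0.85, 95% interval 2.52 to 6.32) with an adjusted p of 0.0056 in the quasi-likelihood test, and it ranged from 3.86 to 5.62 over the fits that omitted 1 sample. Even after its increase, Heyl made up only 1.63% to 4.98% of the summed Hes and Hey CPM in the mutant samples.

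Heyl is also a gene of smooth muscle and pericytes, so markers of these mural cells were set beside it. The 8 mural genes summed to 21.03, 19.9 and 17.6 CPM in control replicates 1, 2 and 3 and to 98.2, 75.9 and 85.3 CPM in Pea3 TKO replicates 1, 2 and 3. Acta2, Tagln and Rgs5 rose, with log2 fold changes of 2.98, 2.63 and 5.10 (adjusted p = 3.9e-04, 0.0010 and 7.7e-04 by quasi-likelihood), whereas Pdgfrb at -0.34 and Cspg4 at 0.45 did not pass the test. Rgs5 was at 0.282, 0.0623 and 0.195 CPM in controls and passed the low-count filter only through its mutant libraries, so its difference was already implied. Myh11, a smooth muscle myosin, was at 0 in all controls and at 0.127, 2.45 and 1.53 CPM in the mutants. Among the mutants, Heyl was lowest in replicate 1 and highest in replicate 2. The mural sum was highest in replicate 1 and lowest in replicate 2, but most of it came from Acta2 and Tagln. Single mural genes differed, as Pdgfrb, Cspg4, Myh11 and Kcnj8 had the order of Heyl, and Acta2, Tagln, Rgs5 and Des did not. Endothelial markers were close to absent, at 0.176 to 7.76 summed CPM over all 6 samples, with Tie1 and Emcn at 0 throughout. The mesenchyme list summed to 402, 562 and 11.9 CPM in Pea3 TKO replicates 1, 2 and 3, where Heyl was at 6.22, 17.7 and 14.6 CPM. The part of mural and mesenchymal cells in the Heyl value was not tested.

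Hey2 (chromosome 10, 30832359 to 30842801) was at the edge of detection. It had 0, 0 and 3 counts in the control libraries and 14, 14 and 0 counts in the mutant libraries, so the groups overlapped. Pooled over libraries, this was 9.95 times the control share, with an exact 95% interval of 3.07 to 51.1 that covers counting error only. Both mutant libraries with Hey2 counts were the ones rich in mesenchymal RNA, and the part of those cells in the Hey2 counts was not tested. Without the low-count filter, Hey2 had an adjusted p of 0.29 in the quasi-likelihood test.

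**Figure D2:**
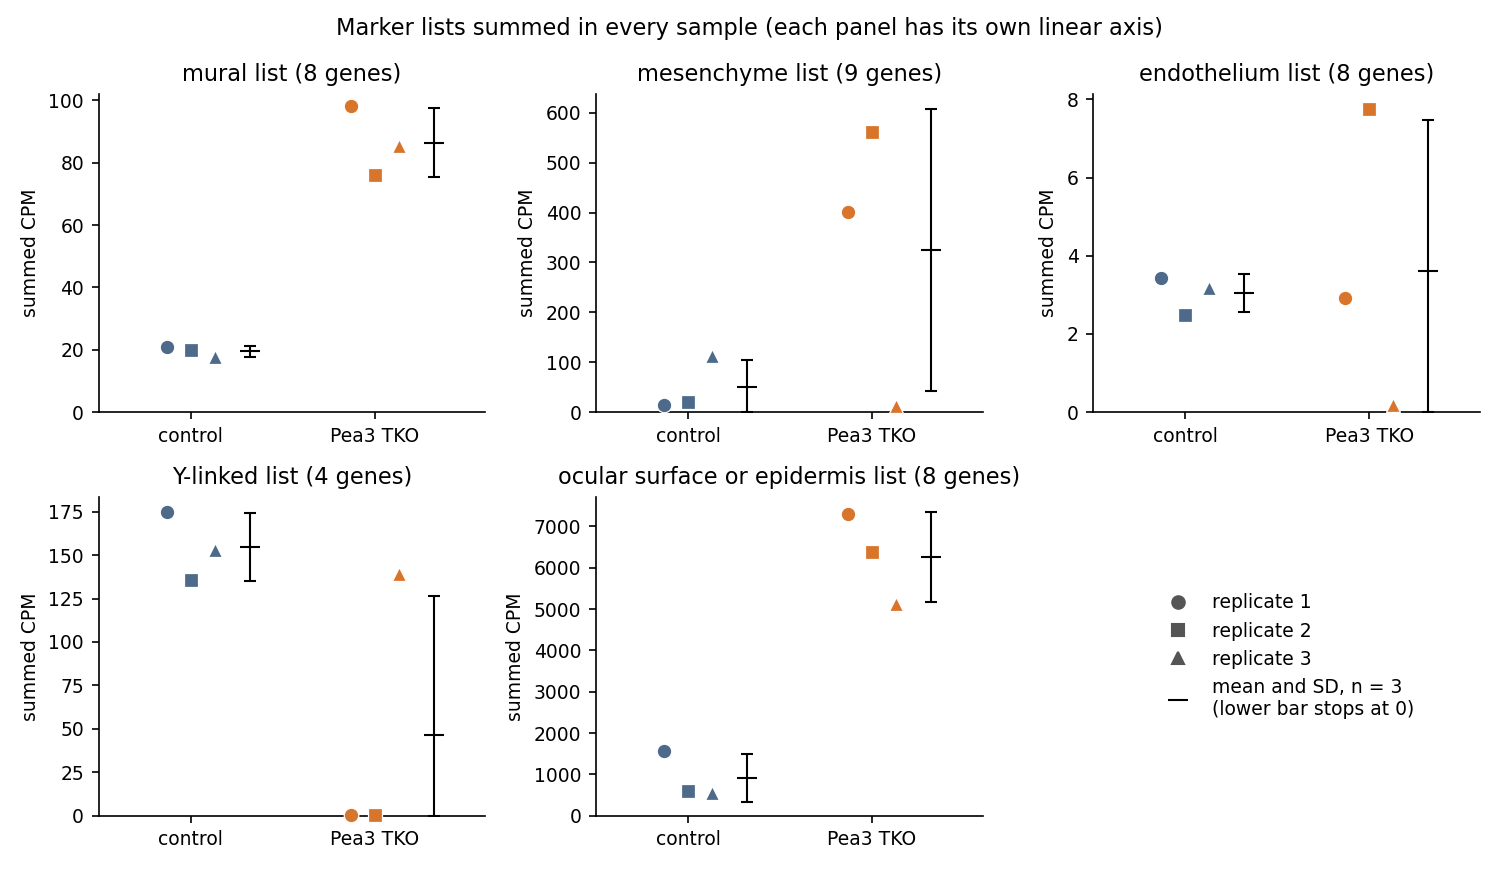
Summed CPM of marker lists on the vertical axis in the 3 control (blue) and 3 Pea3 TKO (orange) samples, with symbols for replicate numbers and the mean and SD beside them. Mural markers lie at 75.9 CPM or above in the mutants and at 21.03 CPM or below in the controls, while mesenchymal and Y-linked sums separate Pea3 TKO replicate 3 from the other mutant replicates.

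Hes6, the member that can counteract Hes1, did not rise with it. The gene (chromosome 1, 91411483 to 91414038) measured 63.2, 63.7 and 68.1 CPM in control replicates 1, 2 and 3 and 70.4, 68.5 and 56.1 CPM in Pea3 TKO replicates 1, 2 and 3. The groups overlapped, with mutant replicate 3 lowest of all. The log2 fold change was 0.00036 (standard error 0.14, adjusted p = 0.9985 by quasi-likelihood), and its 95% interval of -0.31 to 0.31 left room for changes of up to 0.808 or 1.24 times the control level. The ratio of Hes1 to Hes6 counts within a sample does not depend on normalisation. It was 1.75, 1.40 and 0.984 in control replicates 1, 2 and 3 and 3.18, 2.62 and 3.37 in Pea3 TKO replicates 1, 2 and 3, so the mutant samples were all above the controls. A two-sided exact permutation test gave p = 0.10, the smallest that 3 against 3 samples allow. Of the other ratios within a sample, Hey1 to Hes6 gave p = 0.30 and Hes1 to Hey1 p = 0.20 in the same exact permutation test, and all 3 ratios had an adjusted p of 0.30.

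Among the members that the low-count filter removed, Hes5 showed the clearest difference. Hes5 (chromosome 4, 154960923 to 154962371) is a Notch output best known from neural progenitors, and its promoter window is the first of those printed, with 2 Rbpj cores. It had 0, 1 and 1 counts in control replicates 1, 2 and 3 and 8, 24 and 64 counts in Pea3 TKO replicates 1, 2 and 3. All mutant libraries were above all controls, but by very different amounts. The pooled share in the mutants was 51.1 times that in controls, with an exact 95% interval of 13.8 to 428 for counting error only. When the filter was dropped, Hes5 passed the quasi-likelihood test (adjusted p = 0.012), as did 10.8% of all genes in the higher direction, and DESeq2 gave an adjusted p of 0.0013. In CPM, Hes5 reached 3.76 in mutant replicate 3, which is still a low level. The 6 neuronal markers summed to 2.11 CPM in that replicate and to 2.60 to 11.7 CPM in the other samples, and their part in the Hes5 counts was not tested. A total of 433 exonic bases of Hes5 are shared with the antisense gene Gm20421, whose reads could not be told apart from those of Hes5 if strand was not used in counting.

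Hes7 (chromosome 11, 69120404 to 69124055) was detected at 2, 4 and 2 counts in the controls and 6, 5 and 5 counts in the mutants. Every mutant library was above every control, by between 1 and 4 reads. The pooled ratio of 2.13 had an exact 95% interval of 0.861 to 5.75, and no difference was detectable at this depth. Of its exonic bases, 234 are shared with the antisense gene 9130213A22Rik. Hes2 (chromosome 4, 152158867 to 152162469) and Hes3 (chromosome 4, 152285972 to 152291662) had 0 counts in all 6 libraries. These zeros allow a level of up to 0.0604 CPM over the control group and 0.0643 CPM over the mutant group by total count, for counting error only.

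Levels of different members were compared per kilobase of exon, using the union of exons in GENCODE M21. In controls, Hes1 (43.7 ± 10.7 CPM per kilobase) and Hes6 (36.0 ± 1.51) were not separated by their spread, since Hes1 ran from 32.9 to 54.3 and Hes6 from 35.0 to 37.7 over the 3 samples. Hey1 followed at 20.5 ± 2.57 CPM per kilobase (range 17.5 to 22.1) and lay below Hes6 in all 3 samples. Heyl, Hes7, Hes5 and Hey2 were all at most 0.243 CPM per kilobase in any control, with overlapping ranges. In Pea3 TKO the order of the means was the same for the leading members but the gaps differed. Hes1 at 96.9 ± 11.4 CPM per kilobase now stood clear of Hes6 at 36.0 ± 4.29, while Hey1 at 31.5 ± 10.8 overlapped with Hes6. Heyl (2.51 ± 1.16) and Hes5 (1.45 ± 1.21) came next and overlapped with each other. Scaled by the longest transcript instead, the mean of Hey1 in the mutants (42.4) exceeded that of Hes6 (41.3), within their spread.

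The sum of all members was 222 ± 27.1 CPM in controls and 381 ± 26.0 CPM in Pea3 TKO (SD, n = 3 each). Hes1 took 34.8% to 44.9% of the summed CPM in controls and 46.4% to 58.7% in Pea3 TKO, and Hes6 took 25.6% to 35.3% in controls and 13.8% to 19.3% in Pea3 TKO. The share of Hey1 was 29.0% to 32.0% in controls and overlapped with 20.7% to 35.2% in the mutants. The bud thus held 3 abundant members in both groups, and most of the difference in the sum was Hes1.

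**Figure D3:**
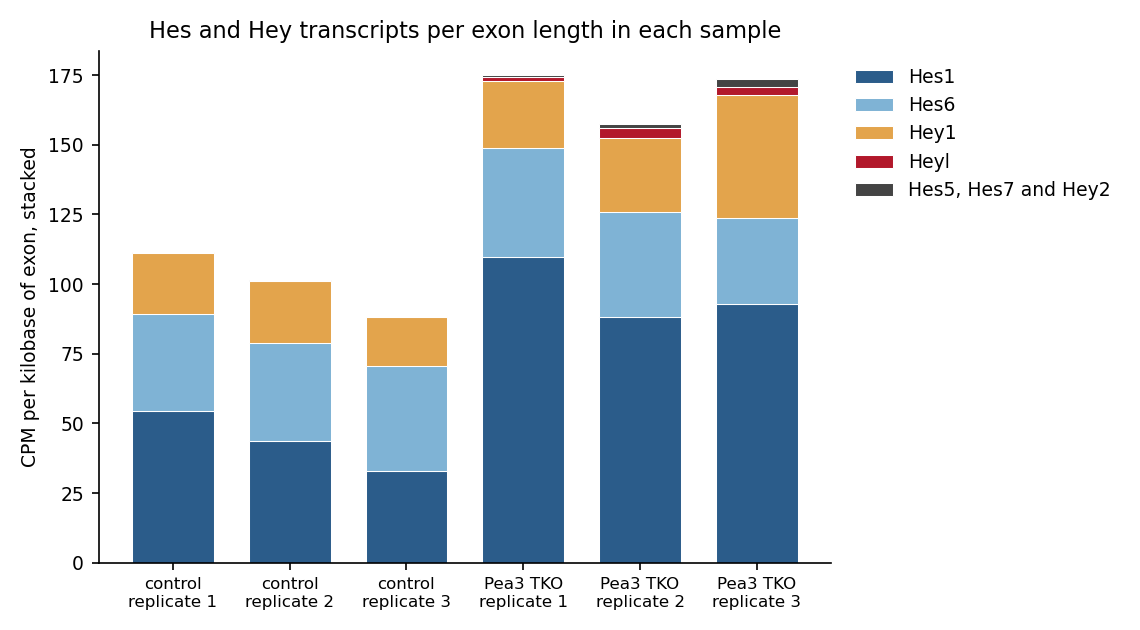
Stacked CPM per kilobase of exon for the Hes and Hey members in each of the 6 samples, with colours for members. The Hes1 block is 32.9 to 54.3 in controls and 88.2 to 110 in Pea3 TKO, the Hes6 block is 31.1 to 39.0 over all samples, and Heyl with Hes5, Hes7 and Hey2 is a thin layer that can be seen in the mutants.

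Upstream of the family, Notch ligands and receptors were examined. Of 5 ligand genes, 3 were tested and 2 rose, where 13.6% of all tested genes rose and 11.3% fell. Jag1 had a log2 fold change of 2.21 (adjusted p = 3.8e-05 by quasi-likelihood), from 30.7, 44.9 and 32.8 CPM in controls to 176, 159 and 167 CPM in mutants. Dll1, which is both a Notch ligand and a gene that Hes1 can repress, had 0, 0.249 and 1.37 CPM in controls and 6.67, 6.85 and 4.17 CPM in mutants (log2 fold change 3.46, adjusted p = 0.033 by quasi-likelihood). Dll1 needed its mutant libraries to pass the low-count filter, so a difference was already implied by its passing. Jag2 had a log2 fold change of -0.49 (adjusted p = 0.14 by quasi-likelihood), Dll3 did not exceed 0.338 CPM in any sample, and Dll4 was at 0. Of the 4 receptors, 3 rose, with log2 fold changes of 1.23 for Notch1, 1.502 for Notch2 and 1.37 for Notch3 (adjusted p = 0.0012, 0.0017 and 8.2e-04 by quasi-likelihood). Notch4, at 1.93 to 3.68 CPM in all samples, did not pass it (0.35). Among the Fringe enzymes, which modify Notch receptors, Lfng fell (log2 fold change -1.94, adjusted p = 9.7e-04 by quasi-likelihood), Rfng had -0.42 (adjusted p = 0.0503 by quasi-likelihood), and Mfng did not exceed 0.390 CPM in any sample.

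Downstream of the receptors the picture was mixed. Rbpj, which carries the Notch signal on DNA, had 47.0, 51.5 and 37.2 CPM in controls and 29.1, 27.9 and 30.7 CPM in mutants, a log2 fold change of -0.63 (adjusted p = 0.023 by quasi-likelihood). Of the 11 genes of the nuclear complex, 1 rose (Kat2b, an acetyltransferase, 1.52) and 2 fell, namely Rbpj and the histone deacetylase Hdac2 (-0.41). The Mastermind co-activators Maml1, Maml2 and Maml3 did not pass the test. Of 21 genes for Notch processing and trafficking, 3 rose, among them Mib2 (0.79) and Dtx2 (0.54), and 1 fell (Adam10, a protease that cleaves the receptor, -0.59). The median log2 fold change was 0.16 for the nuclear list and 0.20 for the processing list, against 0.01 over all tested genes. Of all tested genes, 13.6% rose and 11.3% fell.

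Other Notch targets did not all move in the direction of Hes1. Of 10 such genes, 4 rose (Jag1, Notch3, Ccnd1 at 1.52 and Cdkn1a at 1.11) and 1 fell (Myc, -0.92), with a median of 1.07. Jag1 and Notch3 were already counted among the ligands and receptors, and Cdkn1a is counted again among the repressed genes below. The shares over all tested genes were 13.6% higher and 11.3% lower. Nrarp, a direct target that feeds back on Notch, was at 77.9, 30.7 and 25.0 CPM in controls and 90.7, 79.8 and 101 CPM in mutants. All mutant samples were above all controls, but control replicate 1 was close, and the log2 fold change of 1.02 had an adjusted p of 0.064 in the quasi-likelihood test. Dtx1, another direct target, did not exceed 4.06 CPM in any sample and did not pass the test. Of the 3 bHLH-Orange relatives of the family, none passed, with Bhlhe40 at 0.30, Bhlhe41 at 3.12 (adjusted p = 0.056 by quasi-likelihood) and Helt at 0 counts. Bhlhe41, at most 0.260 CPM in controls, passed the low-count filter only through its mutant libraries, so its difference was already implied.

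Genes that Hes and Hey proteins are known to repress gave little to measure. Of the 9 listed, the proneural factors Atoh1, Neurog1 and Neurog2 had 0 counts in every sample, and Neurog3 did not exceed 0.0564 CPM. Of the 4 tested, the cell cycle inhibitor Cdkn1a and Dll1 rose and none fell, while Cdkn1b (0.62) and Cdkn1c (0.50) did not pass the test. For Dll1 the rise was already implied by its passing the low-count filter. The list median was 0.87 on the log2 scale. For this list and those that follow, the shares over all tested genes were 13.6% higher and 11.3% lower. Among the Groucho co-repressors, of which 6 were tested, Tle4 rose (0.58) and Tle3 fell (-1.73), and the list median was -0.01. Among the partners and rivals of Hes proteins, the E proteins Tcf3 (-0.38) and Tcf4 (-0.43) fell, and none of the 4 genes tested from that list of 10 rose (median -0.26). The Id proteins, which sequester E proteins and report BMP signalling, divided, as Id1 (2.21) and Id3 (1.21) rose and Id2 (-1.92) fell, with a median of 0.25 over the list of 6 genes.

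The calls in these lists were not equally firm. In all, 23 listed genes passed the threshold. Over all tested genes 25.0% passed it, so the count alone is no result about the lists. Of the 23, 7 (Jag1, Notch1, Notch2, Notch3, Lfng, Id1 and Id2) passed it in all 13 other settings. Kat2b, Myc, Ccnd1, Cdkn1a and Id3 passed it in 12 settings, Tle3 and Tle4 in 11, Rbpj and Dll1 in 9, Adam10, Mib2 and Tcf3 in 8, Hdac2 in 6, and Dtx2 and Tcf4 in 5. Rbpj and Dll1 were both lost without control replicate 2, Pea3 TKO replicate 1 or Pea3 TKO replicate 2, and with the Y-linked covariate. Without control replicate 2 the number of listed genes called was 13, without Pea3 TKO replicate 1 it was 15, and without Pea3 TKO replicate 2 it was 14.

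**Figure D4:**
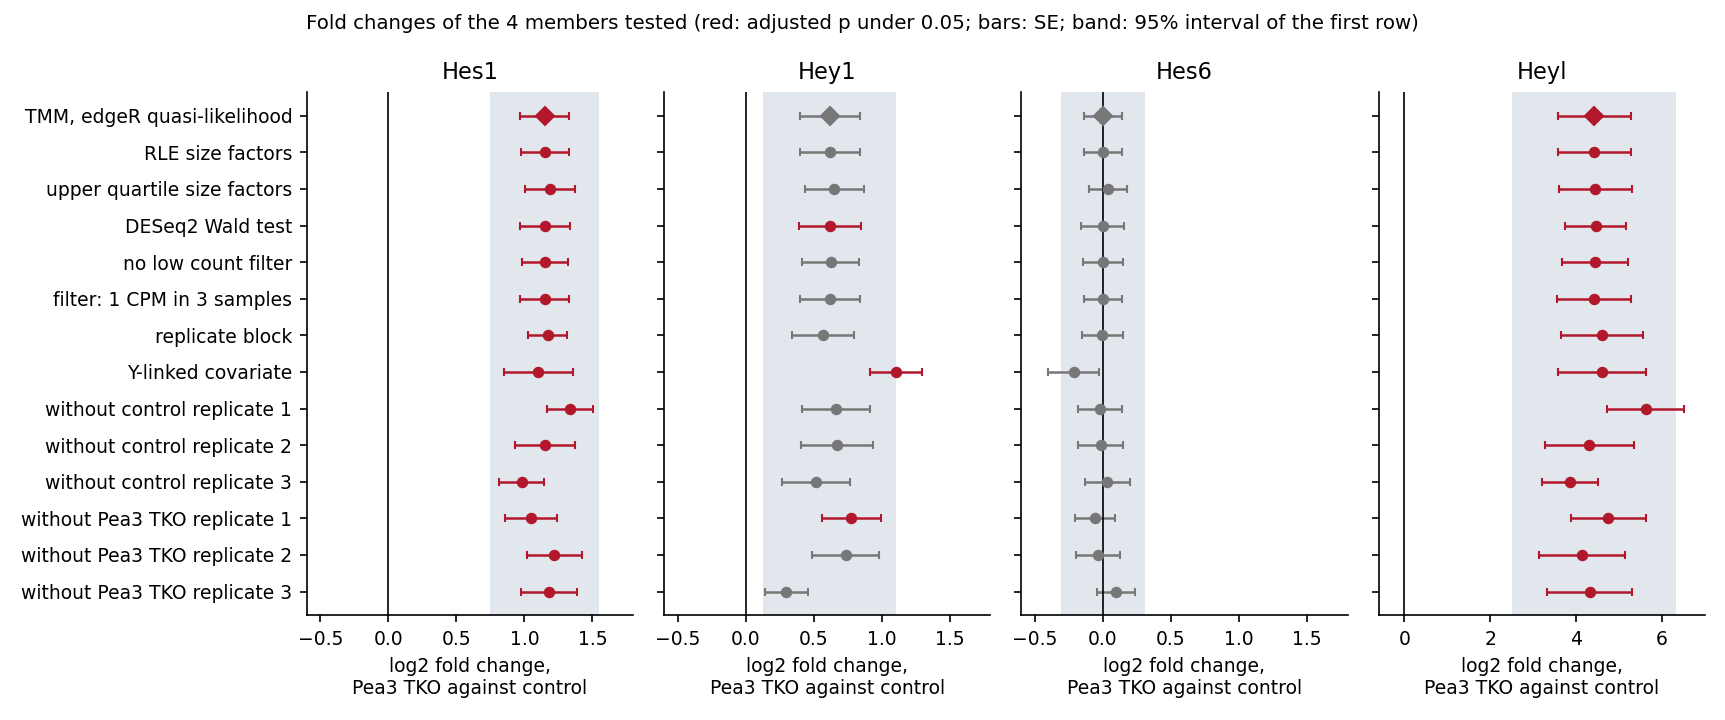
Log2 fold changes of Hes1, Hey1, Hes6 and Heyl with their standard errors under the primary test and 13 other settings, in red where the adjusted p was under 0.05, with the 95% interval of the primary test as a band and a wider axis for Heyl. Hes1 and Heyl are red in all settings, Hey1 in 3 of them, and Hes6 in none.

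The genes whose profiles over the 6 samples lay nearest to each member were found among 12583 genes, by the root mean square difference of centred log2(CPM + 0.5) values. For Hes1 these were Ltbr, a lymphotoxin receptor (0.061), A930015D03Rik (0.069) and Spint1, an epithelial protease inhibitor (0.090). For Hes6 they were Ankrd54 (0.038), the DNA methyltransferase gene Dnmt3a (0.044) and Slc15a4 (0.045). Hey1 had more distant neighbours, namely Mri1 (0.14), the thiamine transporter gene Slc19a2 (0.14) and the interleukin receptor gene Il4ra (0.14). Heyl had no close match, as Sp5 and Il1rn differed from it by 0.41 and 0.43 and both averaged under 1 CPM in controls.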

How the data were processed

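The authors isolated E14.5 lacrimal gland epithelium by laser capture, amplified the RNA and sequenced poly-A selected libraries. The deposited files are raw, unnormalized read counts by gene symbol, with a separate table for each sample. The submitters' processing notes name STAR 2.5.2b, featureCounts 1.5.0-p3, DESeq and mm10. The annotation and strand setting are not given in the sources used here.

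Genes were filtered with filterByExpr, normalized by TMM and tested with the edgeR 4.0.16 quasi-likelihood test in R 4.3.3, using a model of condition alone. Adjusted p-values (Benjamini-Hochberg, threshold 0.05) cover all 13087 genes tested. Standard errors were derived from the F statistic (the size of the log2 fold change over root F), and intervals are at 95%. The scripts were first tested on simulated data. Nothing in the labels says that replicates came from separate animals, and p-values measure only the spread between these samples. No replicates were the same library (chi-square per degree of freedom of at least 15.5). Same-numbered samples did not deviate together, with correlations of 0.14, -0.05 and 0.03, so the numbers were not taken as pairs.

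Alternatives were other size factors, DESeq2 1.42.0, other filters, a replicate block, a Y-linked covariate and leaving out each sample. Exon lengths and positions come from GENCODE M21 and promoters from RefSeq, both GRCm38. The text names all 9 members, the Notch ligands, receptors and Fringe genes, at most 4 genes called from each other list, and the 3 most similar genes of each member. Any further gene named, such as Nrarp, was added after its values were seen. A few genes that meet this rule are not reported here. The members and lists were chosen with earlier results of these data known.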

Additional observations from a re-analysis of the deposited data

How the results depend on the processing

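Hes1 and Heyl kept their direction and an adjusted p under 0.05 in all 13 other settings, with log2 fold changes of 0.98 to 1.34 for Hes1 and 3.86 to 5.62 for Heyl over the fits that omitted 1 sample. For Heyl a difference is implied wherever the filter on low counts admits it through the mutant libraries, and without that filter its adjusted p was 0.0013 by quasi-likelihood. Hey1 ranged from 0.30 to 0.78 without 1 sample, and passed the threshold with DESeq2 (0.62), with the Y-linked covariate (1.11) and without Pea3 TKO replicate 1. With the Y-linked covariate, every group difference rests mainly on Pea3 TKO replicate 3, so this setting is no separate support. Hes6 never passed the threshold, and its near-zero value changed sign with RLE size factors (-0.00012), DESeq2 (-0.0017), the filter of 1 CPM in 3 samples (-0.00097), the replicate block (-0.0054) and the Y-linked covariate (-0.22), and lay between -0.061 and 0.094 without 1 sample. The number of members called was 2 of 4 tested (25.0% of all genes), 4 of 7 with DESeq2 (27.1%), 3 of 7 without the low-count filter (19.1%), 3 of 4 with the Y-linked covariate (6.01%), and 2 to 4 of the 4 to 6 tested without 1 sample (14.4% to 25.0%). Leaving out a sample also let more genes pass the filter. Hes5 could pass it only through mutant libraries, so its calls there are no support.

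Over all genes, 3268 were called, 1783 higher and 1485 lower. With the Y-linked covariate these were 787, 497 and 290, and without 1 sample they ranged from 1948 to 3344, 1131 to 1948 and 799 to 1417. The lowest totals came without control replicate 3 (1948), control replicate 2 (1963) and Pea3 TKO replicate 2 (2072). Of the listed pathway genes, 23 were called, 9 with the Y-linked covariate and 13 to 24 without 1 sample. The replicate block gave 3191 genes and changed no call among the members. By the longest transcript in place of the union of exons, the level of Hey1 relative to Hes6 in controls was 0.672 in place of 0.573, and that of Hes1 relative to Hes6 in Pea3 TKO was 3.27 in place of 2.71. The cause of these shifts was not tested. Hes7 and Hey2 had at most 14 counts in a library, and a difference in them was not detectable at this depth.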

Other observations

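The remaining marker lists showed what else the captured tissue held. Genes of the stratified ocular surface or epidermis were far higher in the mutants, with 7 of 8 increased and a median log2 fold change of 3.25. Over all tested genes, 13.6% rose and the median was 0.01. For Krt13 and Dsg3 the rise was already implied by their passing the low-count filter, and Trp63 did not pass the test (-0.04). The 8 genes summed to 541 to 1575 CPM in controls and 5124 to 7295 CPM in Pea3 TKO. Lens genes summed to 983 CPM in control replicate 2 and to 151 to 354 CPM in the other 5 samples, and none of the 5 tested was called. Of the 9 mesenchyme genes, Dcn and Lum were called higher, although Pea3 TKO replicate 3 was at 2.41 and 2.06 CPM for them. No gene was called among the neuron, Schwann cell, melanocyte, immune, endothelium, red blood cell or Y-linked lists. Summed levels were at most 11.7 CPM for neurons, 29.5 CPM for Schwann cells, 7.27 CPM for melanocytes and 16.8 CPM for immune cells in any sample.

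Hes5 and Hey1 were both highest in Pea3 TKO replicate 3, the mutant sample with Y-linked transcripts, whereas Hes1 was highest in replicate 1 and Heyl in replicate 2, so the members did not share 1 order over the mutant samples. With 3 mutant samples these orders were not tested.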
